A study of Mus musculus with 4 samples.

Results

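Integrins are cell surface receptors built of 1 alpha and 1 beta chain. Here 10 genes for alpha and beta chains found on leukocytes were followed in RNA of mouse CD8+ T cells. Further leukocyte chains, such as Itgax and Itgad, are not among the 10 and are given with the other subunits. The members were chosen as a list of symbols and not by a measured value, but with earlier results of these data known. They were Itga1, Itga4, Itgae, Itgal, Itgam and Itgav among the alpha chains and Itgb1, Itgb2, Itgb3 and Itgb7 among the beta chains. All 10 were found among the 49490 genes of the table. The cells came from spleens and lymph nodes, were activated in culture, and were sequenced as polyadenylated RNA in 4 libraries. The comparison, named by the series as one of Irf8fl/fl with Irf8-/- cells, set 2 libraries with the genotype label WT against 2 labelled Irf8 knockout. Neither the age of the mice nor the means of deletion is given in the sources used. Nothing in the labels ties the replicates to different mice or cultures, so every p-value rests on a spread between libraries that may be technical only.

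Irf8 itself, the targeted transcription factor gene, had 6364 and 6081 normalized counts in the libraries labelled WT, against 89508 and 90222 in those labelled knockout. The direction goes against the label, so the groups are called the libraries labelled WT and labelled knockout throughout, and each difference is given as knockout-labelled over WT-labelled. The libraries held 58899365 to 59724952 reads. Of 13 T cell markers, 12 were lower in the libraries labelled knockout, with a summed level of 624467 to 627655 against 437375 to 441556 and a median log2 fold change of -0.61. Trac, the constant gene of the T cell receptor alpha chain, had 101353 to 104596 in all 4 libraries. All 10 plasmacytoid dendritic cell markers were higher, with sums of 17936 to 18014 against 269352 to 270848, and so were 9 of 10 conventional dendritic cell markers, with 15095 to 15494 against 214986 to 221860. In bulk RNA, fewer cells of a type and less RNA per cell cannot be told apart, and the part of other cells in the integrin values was not tested.

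As background, an integrin reaches the cell surface as a pair, and the alpha chain sets most of the choice of ligand. Talin and kindlin bind the beta tail after signals through the antigen or chemokine receptors and switch the receptor to its high-affinity form. In CD8+ T cells, the pair of Itgal and Itgb2 (LFA-1) holds the cell to ICAM-bearing targets, the pairs of Itga4 with Itgb1 or Itgb7 bind VCAM-1, fibronectin or MAdCAM-1 during homing, the pair of Itgae and Itgb7 (CD103) binds E-cadherin on epithelium, and the pair of Itga1 and Itgb1 binds collagen. Itgam with Itgb2 is typical of myeloid cells, and Itgav pairs with several beta chains to bind vitronectin and to release active TGF-beta.

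Promoter sequence from RefSeq (GRCm38.p6) was matched by symbol for 6 of the 10 members, namely Itga1, Itga4, Itgam, Itgav, Itgb1 and Itgb7. The 4 windows printed here belong to the member with the largest fall (Itga1), the most abundant matched beta chain (Itgb1), the matched member that rose (Itgb7) and the myeloid alpha chain (Itgam), so that members that moved differently stand side by side. Each window runs from 250 to 11 bases before the RefSeq start, 5′ to 3′ on the gene's strand, and capitals mark matches to the motifs searched on both strands. In mm10 coordinates, the windows are chr13:115101975-115102214 (minus strand, Itga1), chr8:128685404-128685643 (plus strand, Itgb1), chr15:102231946-102232185 (minus strand, Itgb7) and chr7:128062390-128062629 (plus strand, Itgam).
Itga1: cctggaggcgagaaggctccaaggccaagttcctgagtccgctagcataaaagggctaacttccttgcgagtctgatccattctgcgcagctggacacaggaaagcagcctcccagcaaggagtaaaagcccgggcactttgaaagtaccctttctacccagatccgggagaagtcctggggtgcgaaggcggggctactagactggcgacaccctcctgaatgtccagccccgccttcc
Itgb1: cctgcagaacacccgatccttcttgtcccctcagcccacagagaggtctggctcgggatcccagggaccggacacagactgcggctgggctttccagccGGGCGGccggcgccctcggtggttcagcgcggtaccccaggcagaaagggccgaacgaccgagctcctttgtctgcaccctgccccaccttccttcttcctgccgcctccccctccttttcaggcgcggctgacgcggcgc
Itgb7: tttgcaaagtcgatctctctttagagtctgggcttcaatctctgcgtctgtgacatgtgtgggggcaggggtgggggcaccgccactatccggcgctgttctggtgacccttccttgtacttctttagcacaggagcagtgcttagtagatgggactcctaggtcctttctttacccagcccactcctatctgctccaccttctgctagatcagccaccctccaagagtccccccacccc
Itgam: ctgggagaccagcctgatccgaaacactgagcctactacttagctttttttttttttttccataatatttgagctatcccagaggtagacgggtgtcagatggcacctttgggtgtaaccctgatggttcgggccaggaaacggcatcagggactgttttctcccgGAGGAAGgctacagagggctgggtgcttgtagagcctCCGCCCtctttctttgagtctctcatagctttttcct

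The motifs were a pair of IRF sites (GAAA, any 2 bases, GAAA), the ETS-IRF composite (GGAA, any 2 bases, GAAA, which can overlap the former), a PU.1 site (GAGGAAG), the RUNX core (TGTGGT), the GC box (GGGCGG), an AP-1 site (TGANTCA) and a TATA box (TATAAA). Among the 6 members' windows, 0 held either IRF motif, against 2.87% and 2.22% of 32534 promoter windows of the same length. The GC box was in 3 of the 6, those of Itga4, Itgam and Itgb1, against 31.5% of all windows. The PU.1 letters were in the window of Itgam alone, against 10.1% of all, and the RUNX core in that of Itga4 alone, against 13.5%. AP-1 and TATA letters were in 0 of the 6, against 6.56% and 12.0%. The windows differed in base composition, with 68.3% G and C and 20 CpG in Itgb1 and 65.0% and 17 in Itgav, and 55.8% and 5 in Itgb7, where the medians over all windows were 52.1% and 5. A match is a description of letters and says nothing of binding.

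Of the 10 subunits, 6 fell and 2 rose in the knockout-labelled libraries (limma, threshold of 0.05 on the adjusted p), where 13.4% of the 18378 genes tested fell, 19.9% rose and 33.4% did either. All 10 passed the filter on low values. The 6 that fell were Itga1, Itgal, Itgam, Itgav, Itgb1 and Itgb2, by 0.32 to 1.04 on the log2 scale, and the 2 that rose were Itgae, by 1.48, and Itgb7, by 0.31. Itga4 and Itgb3 did not pass. The median over the 10 was -0.34, against 0.02 over all genes tested. Normalized counts of the groups did not overlap for 9 of the 10, where 68.8% of all genes tested behaved so. Fold changes are differences of log2(normalized count + 1). The count of called members was 7 by DESeq2, where 32.9% of all genes were called, 8 by edgeR with TMM factors (34.5%), and 7 in the authors' deposited table (25.6%). Median centring, which gives the libraries a common median, took the median of all genes to -0.28 and called 9 of the 10 (52.2% of all genes), 8 of them lower. Under that scaling the rise of Itgb7 shrank to 0.01 (adjusted p = 0.906, limma) while Itgae stayed higher, at 1.18.

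**Figure D1:**
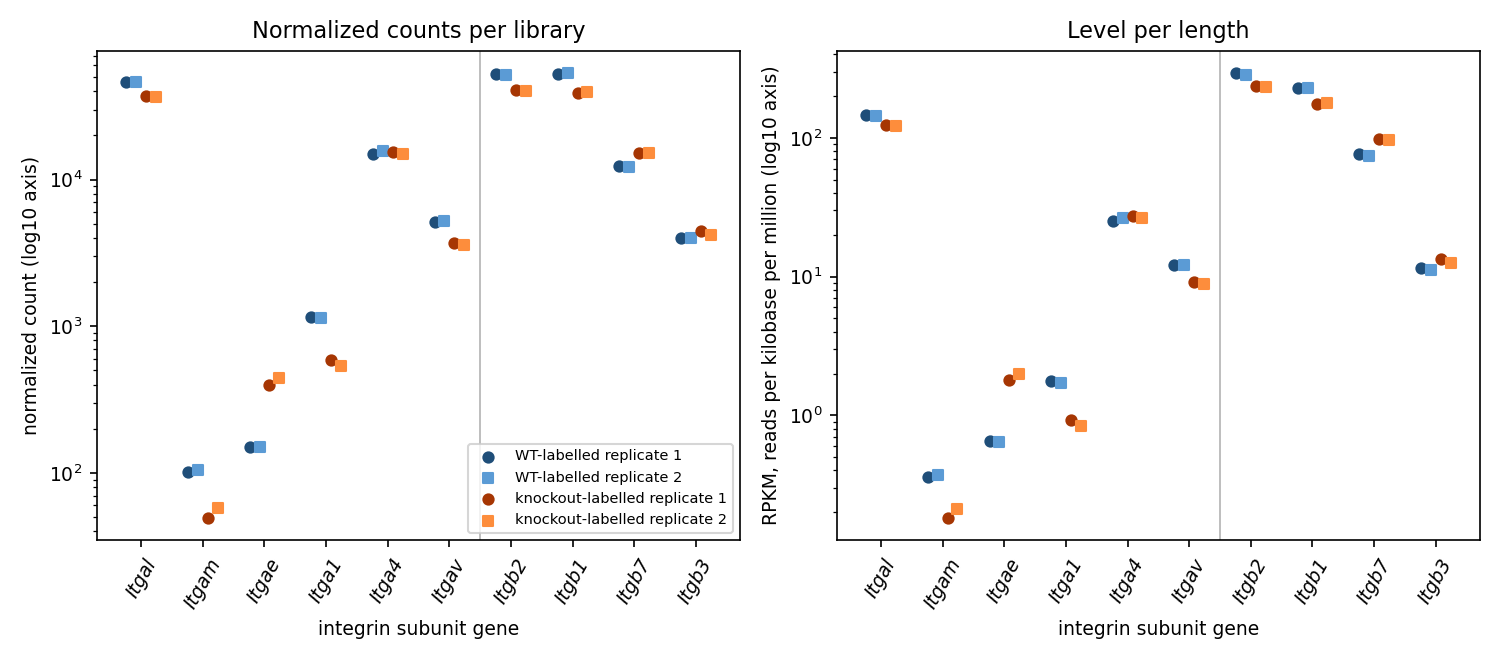
Normalized counts (left) and RPKM (right), both on log10 axes, of the 10 integrin subunit genes in each of the 4 libraries, with alpha chains left of the grey line and beta chains right of it. Itgae lies higher in both libraries labelled knockout (399 and 444 against 150 and 150 normalized counts), Itga1 lower (588 and 534 against 1161 and 1144), and Itga4 overlaps.

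The LFA-1 chains were among the most abundant transcripts of the family. Itgal (ENSMUSG00000030830.18, mm10 chromosome 7, 127296260 to 127335138, plus strand), its alpha chain, had 46136 and 45979 normalized counts in the libraries labelled WT, against 37185 and 36511 in those labelled knockout. The knockout-labelled libraries kept 80.0% of the WT-labelled level, with a log2 fold change of -0.32 and a standard error of 0.03 (adjusted p = 3.01e-04, limma). Itgb2 (ENSMUSG00000000290.13, chromosome 10, 77530252 to 77565708, plus strand), the beta chain shared by all CD11 integrins, had 52274 and 51529 against 40582 and 40359. It kept 78.0%, with a log2 fold change of -0.36 and a standard error of 0.03 (adjusted p = 1.68e-04, limma). For both genes the lower of the WT-labelled libraries lay well above the higher of the others, and replicates differed by far less than the groups.

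Itgam (ENSMUSG00000030786.18, chromosome 7, 128062640 to 128118491, plus strand), the alpha chain of the myeloid integrin Mac-1, was the least abundant member. It had 101 and 105 normalized counts in the libraries labelled WT, against 49.0 and 57.4 in those labelled knockout, a log2 fold change of -0.94 with a standard error of 0.24 (adjusted p = 0.0275, limma). This call was not firm, since the adjusted p was 0.0693 by DESeq2 and 0.155 in the authors' deposited table, and leaving out 1 library gave 0.0628 (WT-labelled replicate 2), 0.147 (knockout-labelled replicate 1) and 0.107 (knockout-labelled replicate 2) by limma. In the same libraries 7 of 11 macrophage and monocyte markers fell and 1 rose (Cd68, named after its value was seen, from 1687 and 1947 to 11390 and 10918), with sums of 47679 to 48051 against 43386 to 44630. Ccr2 was the largest part of these sums, with 31251 and 29996 against 23122 and 22131. All 9 neutrophil markers rose, with sums of 222 to 241 against 3323 to 3415, and Mpo, Elane and Camp, named after their values were seen, were at 0 in both libraries labelled WT. The part of these cells in the value of Itgam was not tested. In GENCODE M21 a further gene model on the same strand, Gm49368, shares 3450 of the 5024 exonic bases of Itgam, so reads of Itgam may have been split.

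The beta chain of the VLA family, Itgb1 (ENSMUSG00000025809.15, chromosome 8, 128685654 to 128733200, plus strand), had 52782 and 53264 normalized counts in the libraries labelled WT against 38836 and 39252. Its log2 fold change was -0.44 with a standard error of 0.03 (adjusted p = 6.51e-05, limma), the smallest adjusted p among the 10. Itga1 (ENSMUSG00000042284.10, chromosome 13, 114953096 to 115101964, minus strand), the collagen-binding partner of Itgb1 that marks some tissue-resident T cells, fell furthest. It had 1161 and 1144 against 588 and 534, so that 48.7% of the WT-labelled level remained, with a log2 fold change of -1.04 and a standard error of 0.09 (adjusted p = 3.80e-04, limma). A gene model of the same strand, Gm49395, shares 685 of the 18599 exonic bases of Itga1. Itgav (ENSMUSG00000027087.11, chromosome 2, 83724397 to 83806916, plus strand), the vitronectin receptor alpha chain, had 5161 and 5226 against 3708 and 3602. Its log2 fold change was -0.51 with a standard error of 0.05 (adjusted p = 4.13e-04, limma). A gene of the opposite strand, Gm13684, shares 634 exonic bases with Itgav, and it had 679 and 691 against 505 and 483. Whether the counting used strand is not known from the labels.

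Itga4 (ENSMUSG00000027009.18, chromosome 2, 79255426 to 79333123, plus strand), the alpha chain of VLA-4 and of the gut-homing pair with Itgb7, had 14824 and 15651 normalized counts in the libraries labelled WT, against 15400 and 15016 in those labelled knockout. The knockout-labelled values lay inside the WT-labelled range, with a log2 fold change of -0.00 and a standard error of 0.04 (adjusted p = 0.971, limma). With median centring the value was -0.30 (adjusted p = 9.88e-04, limma). Cerkl on the opposite strand shares 1124 exonic bases with Itga4 and had 175 to 245 normalized counts. Itgb3 (ENSMUSG00000020689.4, chromosome 11, 104608000 to 104670476, plus strand), a beta chain of platelets and activated cells, had 4006 and 3962 against 4447 and 4182. The groups did not overlap, but the log2 fold change of 0.11 with a standard error of 0.05 did not pass (adjusted p = 0.148, limma), and the sign turned to -0.19 with median centring (adjusted p = 0.0296).

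Itgae (ENSMUSG00000005947.11, chromosome 11, 73090583 to 73147446, plus strand), the alpha chain of CD103, which marks epithelial resident CD8+ T cells and a class of conventional dendritic cells, rose most. It had 150 and 150 normalized counts in the libraries labelled WT, from 147 reads each, against 399 and 444, or 2.81-fold. The log2 fold change of 1.48 had a standard error of 0.15 (adjusted p = 5.62e-04, limma). Itgb7 (ENSMUSG00000001281.10, chromosome 15, 102215995 to 102231944, minus strand), its only partner and one of the partners of Itga4, had 12308 and 12230 against 15234 and 15115. It was 1.24-fold higher, with a log2 fold change of 0.31 and a standard error of 0.03 (adjusted p = 8.24e-04, limma). The rise was 0.30 by DESeq2 and by edgeR with TMM factors, but shrank to 0.01 with median centring as given above. Beside both genes, 9 of 10 conventional dendritic cell markers rose, H2-Aa from 4588 and 4817 to 77125 and 77689, and so did all 10 plasmacytoid dendritic cell markers. The markers of the CD103-bearing class, picked after their values were seen, were split, since Clec9a rose from 29.5 and 11.2 to 1547 and 1589 while Xcr1 had 534 and 631 against 640 and 542. No marker of the conventional list was at 0 in a group, and the part of either cell type in the values of Itgae and Itgb7 was not tested.

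Set beside the 13 T cell markers, whose median was -0.61, the members spread to both sides. Itga1 lay 0.43 and Itgam 0.33 below that median on the log2 scale, and the other 8 lay above it. Itgav, Itgb1, Itgb2 and Itgal lay above it by 0.11, 0.17, 0.25 and 0.29, within the range of the single markers (-0.81 to -0.01). The upper end of that range was Trac, the next highest marker was Cd8a at -0.33, and Itgal was at -0.32. Itga1 and Itgam lay below the range. Itga4 lay 0.61 above the median, Itgb3 0.73 and Itgb7 0.92, and Itgae lay furthest above. These are distances between fitted values, and no test of them was made.

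**Figure D2:**
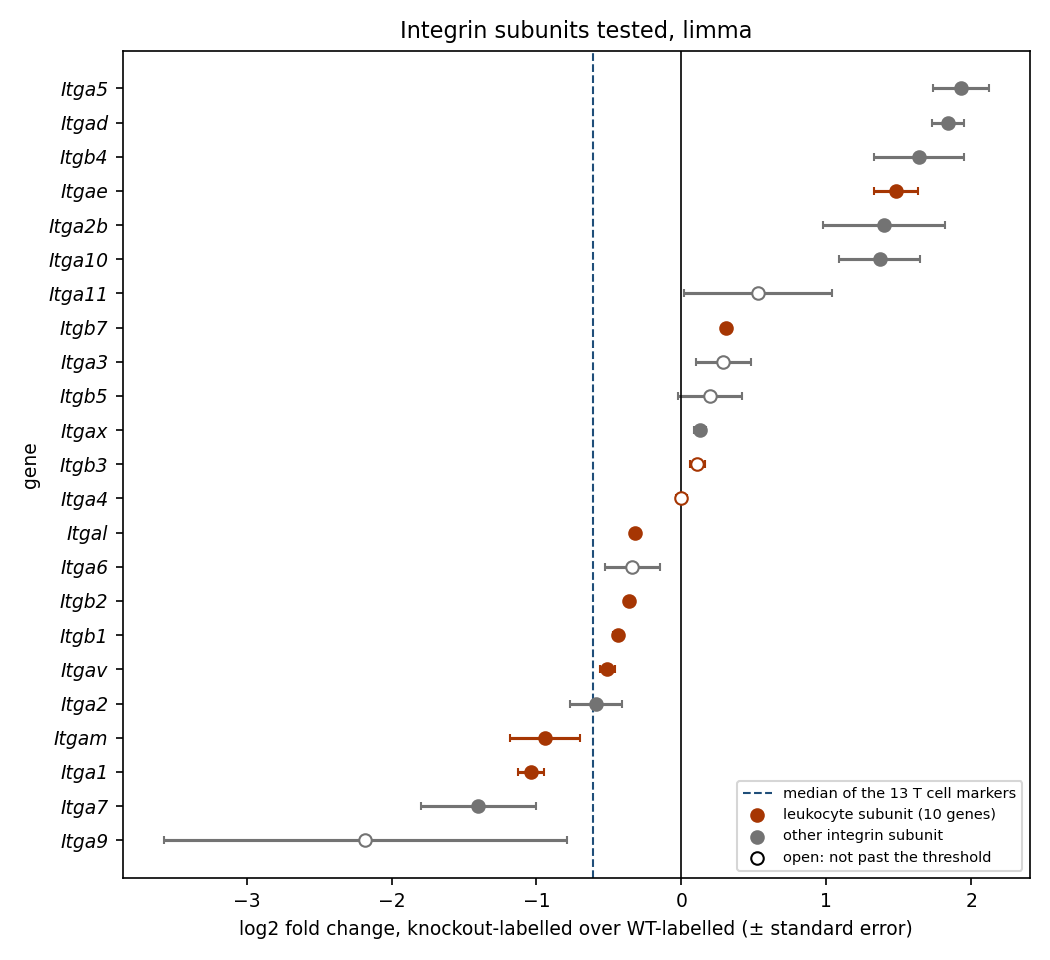
Log2 fold change, knockout-labelled over WT-labelled, with its standard error (bars) by limma for each integrin subunit gene tested. The 10 members (leukocyte subunit in the key) are brown, and the others, Itgax and Itgad among them, are grey. Open circles are genes not past the threshold, and a dashed line marks the T cell marker median of -0.61. Itgae (1.48) stands at the top and Itga1 (-1.04) at the bottom of the 10, and the rise of Itgb7 (0.31) was 0.01 with median centring.

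Levels can be compared between genes only per length, so reads were divided by the longest GENCODE M21 transcript and by library depth (RPKM). In the libraries labelled WT the order of mean RPKM was Itgb2 (289), Itgb1 (230), Itgal (146), Itgb7 (75.6), Itga4 (25.8), Itgav (12.2), Itgb3 (11.4), Itga1 (1.74), Itgae (0.645) and Itgam (0.364). In those labelled knockout it was Itgb2 (235), Itgb1 (177), Itgal (122), Itgb7 (97.7), Itga4 (26.9), Itgb3 (12.9), Itgav (8.95), Itgae (1.89), Itga1 (0.884) and Itgam (0.196). The members thus spanned from the 98.4th percentile of genes tested (Itgb2, libraries labelled WT) to the 10.5th (Itgam, libraries labelled knockout). Neighbours in the order did not overlap between libraries of a group. The closest were Itgav and Itgb3 in the libraries labelled WT, at 12.2 and 12.1 against 11.6 and 11.2 RPKM. Their order depended on the length used, since with summed exon length Itgav had a mean of 7.99 and Itgb3 of 11.2. Itga1 and Itgae changed places between groups under both lengths, from 1.02 and 0.541 to 0.521 and 1.59 with summed exon length.

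The mix of chains was described as each gene's share of the summed RPKM of all 18 alpha or all 9 beta subunit genes, a quantity that does not depend on the scaling between libraries. Itgb2 held 47.9% and 47.4% of beta chain transcripts in the libraries labelled WT, against 45.0% and 44.9% in those labelled knockout. Itgb1 held 37.6% and 38.2% against 33.5% and 34.0%, and Itgb7 12.5% and 12.5% against 18.7% and 18.6%. Itgb3 made up 1.88% and 1.87% against 2.53% and 2.39%. Each of these shares differed more between groups than between replicates, and Itgb7 gained the most, 6.18 percentage points. Among alpha chains, Itgal held 59.6% and 59.1% against 52.6% and 52.7%, and Itga4 10.2% and 10.8% against 11.7% and 11.6%. Itgav had 4.94% and 4.97% against 3.89% and 3.85%, Itga1 a mean of 0.707% against 0.382%, and Itgae 0.263% and 0.262% against 0.767% and 0.870%. Itgax, the CD11c chain of dendritic cells and of activated CD8+ T cells, was the next most abundant alpha chain after Itgal, with 21.0% and 20.3% against 25.1% and 25.1%.

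**Figure D3:**
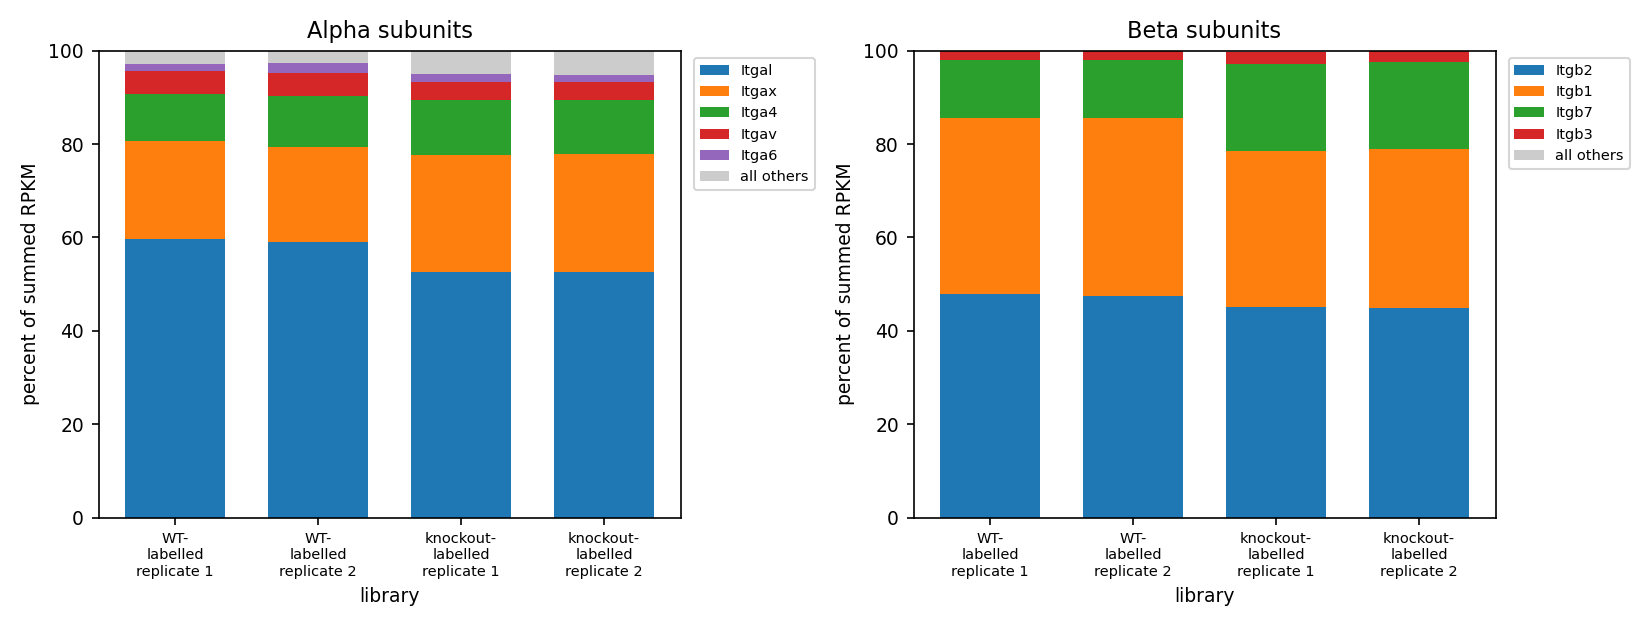
Share of each gene in the summed RPKM of alpha (left) and beta (right) subunit genes, in percent, in each of the 4 libraries. The Itgb7 share is 12.5% in both libraries labelled WT and 18.7% and 18.6% in those labelled knockout, and the Itgal share is 59.6% and 59.1% against 52.6% and 52.7%.

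The ratio of partner transcripts within a library was taken for 8 known pairs. The RPKM of Itgal was 0.502 and 0.507 of that of Itgb2 in the libraries labelled WT, against 0.521 and 0.515 in those labelled knockout, a log2 difference of 0.04, so the LFA-1 chains fell almost in step. The ratio of Itgav to Itgb1 was also close between groups, with a log2 difference of -0.07. Itgae over Itgb7 moved most, from 0.00848 and 0.00856 to 0.0183 and 0.0205, a log2 difference of 1.18, yet Itgae stayed far below its partner in each library. Itga4 gained on Itgb1, from 0.110 and 0.115 to 0.155 and 0.149 (log2 difference 0.44), and lost against Itgb7, from 0.331 and 0.352 to 0.278 and 0.273 (-0.31). By the longest transcript, Itgav and Itgb3 were near equal in the libraries labelled WT, at 1.06 and 1.08, but at 0.684 and 0.706 in the others (-0.62). With summed exon length, mean RPKM of Itgav was below that of Itgb3 in both groups, at 7.99 against 11.2 (labelled WT) and 5.88 against 12.6 (labelled knockout). The log2 difference was again -0.62, which a change of length cannot move, since it scales a gene alike in every library. Itga1 over Itgb1 went from 0.00765 and 0.00747 to 0.00527 and 0.00474 (-0.60), and Itgam over Itgb2 had a log2 difference of -0.60 on few reads. The groups did not overlap for any of the 8 pairs, several of which share a chain. Normalized counts of single genes did not overlap for 68.8% of all genes tested, and no such share was taken for ratios of other genes. An exact two-sided permutation test gave p = 0.333 for each pair, which is the smallest that 2 libraries against 2 allow.

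**Figure D4:**
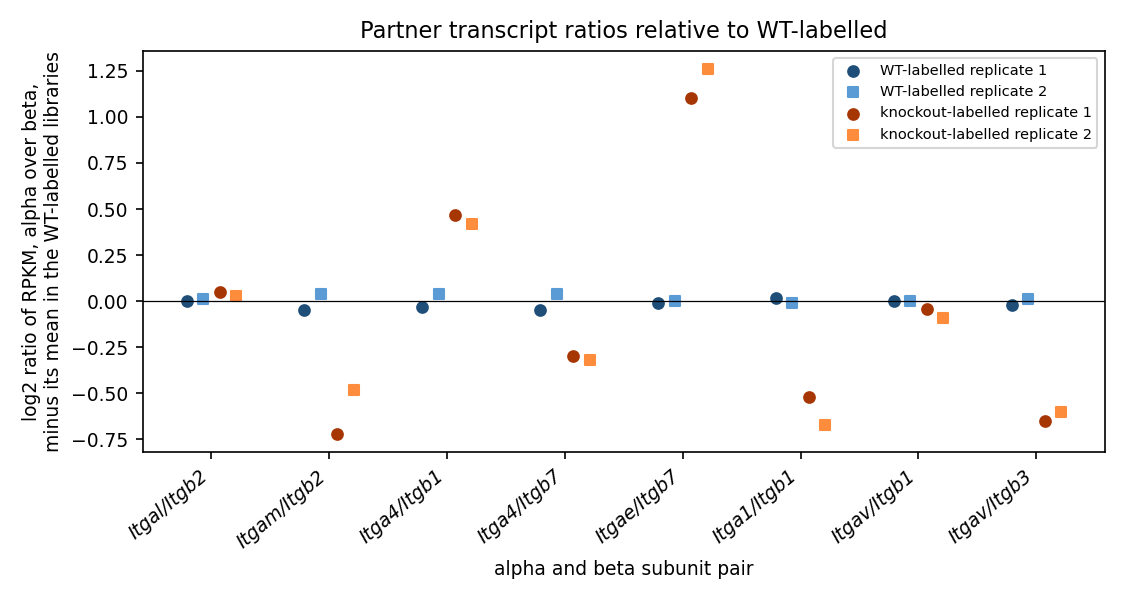
Log2 ratio of alpha to beta RPKM for 8 pairs in each of the 4 libraries, shown relative to the mean of the libraries labelled WT, which is set at 0. Itgae over Itgb7 lies highest in the libraries labelled knockout (mean 1.18 above) and Itgav over Itgb3 has the lowest mean (-0.62), while Itgal over Itgb2 stays near 0 (0.04).

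Of the 17 other integrin subunit genes of the mouse, 13 passed the filter on low values. Of these, 6 rose and 2 fell, where 19.9% and 13.4% of all genes tested did so. The median of the 13 was 0.29. Itgad, a CD11 alpha chain of macrophages, had 295 and 317 normalized counts in the libraries labelled WT, against 1131 and 1066 in those labelled knockout (log2 fold change 1.84, SE 0.11, adjusted p = 5.20e-05, limma). Itga5, the fibronectin receptor alpha chain, had 129 and 98.0 against 432 and 430, or 3.79-fold (adjusted p = 4.98e-04, limma). Itgax had 12573 and 12236 against 13736 and 13503, a log2 fold change of 0.13 that turned to -0.17 with median centring, and its call was lost without WT-labelled replicate 2 (adjusted p = 0.0556) or either knockout-labelled library (0.204 and 0.158) by limma. The others that rose had few counts. Itgb4, a laminin receptor chain, had 35.6 and 38.8 against 147 and 94.4, Itga10, which shares 1739 of its 5186 exonic bases with Gm42957 of the same strand, 30.5 and 31.7 against 78.4 and 85.7, and Itga2b, the platelet chain that pairs with Itgb3, 47.8 and 22.5 against 74.5 and 105. Itga2, a collagen receptor chain, fell from 246 and 301 to 191 and 170, and Itga7 from 35.6 and 48.0 to 13.7 and 16.5. Each of Itga2, Itga2b and Itga7 lost its call by DESeq2 (adjusted p = 0.0635, 0.0524 and 0.105). When either knockout-labelled library was left out, some of the 6 rises and the 2 falls lost their calls by limma, and calls over all genes became fewer too. The falls were also lost without WT-labelled replicate 2.

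Among those not past the threshold, Itga6, a laminin receptor chain, had 970 and 1484 against 969 and 925, so that 1 WT-labelled library stood apart, and without WT-labelled replicate 1 it was called lower (log2 fold change -0.65, adjusted p = 8.42e-04, limma). Itga3 had 290 and 222 against 342 and 283, Itgb5 105 and 108 against 138 and 109, Itga11 21.4 and 17.4 against 18.6 and 42.8, and Itga9 29.5 and 10.2 against 15.7 and 0. The other 4 genes did not pass the filter on low values and were not tested. Itgb2l was at 0 in both libraries labelled WT and had 18.6 and 8.76 in the others, at least 4.48-fold higher against a floor of 3 reads per library, Itga8 had 0 to 10.7, Itgb8 0 to 10.2, and Itgb6 was at 0 in all 4 libraries, where up to 3 reads per library cannot be told from none. Of 3 platelet markers tested, 0 rose beside Itga2b. Pf4 fell from 650 and 641 to 82.3 and 115, and Gp1ba had 19.3 and 18.4 against 18.6 and 26.3. Named after their values were seen, Ppbp had 13.2 and 25.5 against 5.88 and 0, and Treml1, not tested, was at 0 in all 4 libraries. The part of platelets in the value of Itga2b was not tested.

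Itgal, Itgam, Itgax and Itgad lie on chromosome 7, the last 3 next to each other on the plus strand. Itgax starts 11.1 kb after the end of Itgam and Itgad 3.7 kb after the end of Itgax. The 3 neighbours did not move as a block, with log2 fold changes of -0.94, 0.13 and 1.84 in that order along the chromosome, and of -1.24, -0.17 and 1.54 with median centring. Cox6a2, a gene of plasmacytoid dendritic cells on the opposite strand, shares 70 of the 4510 exonic bases of Itgad and rose from 84.5 and 137 to 11722 and 11010 normalized counts. Its part in the reads counted for Itgad was not tested.

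Of 30 genes for integrin ligands and carriers of latent TGF-beta, 20 were tested. Of these, 7 rose and 4 fell, where 19.9% and 13.4% of all genes tested did so. The list's median was 0.63. Cdh1, which encodes E-cadherin, the ligand of the pair of Itgae and Itgb7, had 557 and 769 normalized counts in the libraries labelled WT, against 7830 and 7731 in those labelled knockout (log2 fold change 3.57, adjusted p = 1.19e-05, limma). Emilin1, a matrix protein bound by the pair of Itga4 and Itgb1, had 51.9 and 90.9 against 2482 and 2534. Nrros, which tethers latent TGF-beta on leukocytes, had 5075 and 5133 against 7849 and 7552. Among the falls, Fn1, the gene of fibronectin, had 900 and 998 against 348 and 368, Spp1, the gene of osteopontin, 2544 and 2743 against 1634 and 1761, and Icam2, an LFA-1 ligand, 2334 and 2604 against 1655 and 1775. Thbs1, a matrix protein named after its value was seen, was the fourth that fell, with 427 and 453 against 283 and 277. Some further ligands were picked for their place as direct partners after their values were seen. Icam1, the main LFA-1 ligand, had 9583 and 9326 against 9513 and 9308 (adjusted p = 0.915, limma), Vcam1 had 14.2 and 15.3 against 49.0 and 76.9, and Madcam1 was at 0 in all 4 libraries.

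Of 51 genes that activate integrins or tie them to the cytoskeleton, 48 were tested. Of these, 21 rose and 13 fell, where 19.9% and 13.4% of all genes tested did so. The list's median was 0.09. The smallest adjusted p among the rises belonged to tyrosine kinases typical of myeloid cells and B cells. Syk had 149 and 164 normalized counts in the libraries labelled WT, against 7610 and 7966 in those labelled knockout, Lyn 802 and 822 against 7474 and 7541, and Fgr 1272 and 1097 against 8821 and 9130. The falls were led by Skap1, a T cell adaptor that carries signals from the antigen receptor to LFA-1, with 22896 and 22741 against 14426 and 14615 (log2 fold change -0.65, adjusted p = 2.54e-05, limma). Dok2, a signalling inhibitor of leukocytes, had 19039 and 18272 against 12437 and 12577, and Rap1b, the small GTPase that drives talin to the beta tail, 24399 and 23570 against 18049 and 18654. The paralogs of Skap1 and Rap1b, named after their values were seen, rose. Skap2 had 1475 and 1374 against 5433 and 5339, and Rap1a 7400 and 7551 against 10122 and 10286. Talin and kindlin were added after their values were seen. Tln1, talin, had 23444 and 25135 against 19795 and 18910 (log2 fold change -0.33, adjusted p = 0.00237, limma), and Fermt3, the kindlin of blood cells, 19254 and 19289 against 19059 and 19193 (-0.01, adjusted p = 0.817). With median centring the list's split was 12 higher and 25 lower, where 2389 and 7210 of all 18378 genes tested were so.

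Of 19 genes of TGF-beta signalling and of the RUNX factors, which are known to act on Itgae, all were tested. Of these, 2 rose and 5 fell, where 19.9% and 13.4% of all genes tested did so. The list's median was 0.07. Eng, a co-receptor, had 149 and 127 normalized counts in the libraries labelled WT, against 975 and 1137 in those labelled knockout, and Tgfbr1, the type I receptor, 545 and 536 against 1601 and 1425 (log2 fold change 1.48, adjusted p = 8.19e-05, limma). Tgfbr2, the type II receptor, had 14794 and 15339 against 12503 and 11884, Smad3, a signal transducer, 4306 and 4380 against 3353 and 3564, and Ski, a repressor of the pathway, 2736 and 2409 against 1986 and 1789. Their log2 fold changes were -0.31, -0.33 and -0.45. The other two that fell, Runx3 and its partner Cbfb, were named after their values were seen, with 19519 and 18791 against 17359 and 17528 for Runx3 and 6661 and 6390 against 5860 and 5422 for Cbfb. Fewer of the 5 falls passed by limma when either knockout-labelled library was left out, and calls over all genes became fewer too. With median centring 12 of the 19 fell, where 7210 of all 18378 genes tested did so.

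The genes whose 4 values most resembled those of the members at each end were found by the Euclidean distance between log2 values, each centred on its own mean, among 12520 genes. For Itgae they were Rasa4, a Ras GTPase-activating protein, at a distance of 0.065, Gpr146, an orphan receptor, at 0.072, and Inpp4a, a phosphoinositide phosphatase, at 0.080. Rasa4 had 1013 and 1018 normalized counts in the libraries labelled WT, against 2553 and 2898 in those labelled knockout. For Itga1 they were Ndrg2 at 0.047, Cysltr2, a leukotriene receptor, at 0.056, and Car7, a carbonic anhydrase, at 0.067. Cysltr2 had 671 and 691 against 351 and 310. With 4 libraries in 2 groups, such likeness says little more than that the size of the difference is alike.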

How the data were processed

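Polyadenylated RNA of 4 libraries, 2 labelled WT and 2 labelled Irf8 knockout, was analysed from 1 table. Per the submitters' processing notes, the tools were HISAT2 (2.2.1), Trim Galore (0.4.4), DESeq2 and StringTie (2.1.4), and the build was mm10. Their settings, annotation and strand use are not given there. The authors deposited normalized counts per library, a signal of reads divided by a size factor, and their mean. The authors' table also holds a log2 fold change of WT over knockout, its standard error and Wald score, and a p-value with its adjusted value. Its sign is the reverse of the one used here.

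Within a tolerance of 0.01 reads, 100.0% of values were whole multiples of 1 read per library, so reads were recovered (58899365 to 59724952 per library). Genes with a normalized count of at least 10 in at least 2 libraries (18378) were tested with limma 3.58.1 (eBayes with a robust trended variance) on log2(normalized count + 1), two-sided, Benjamini-Hochberg adjusted over all of them, threshold 0.05, with no covariate. Fold changes on this scale understate changes of low genes. A gene at 0 was given a floor of 3 reads per library (95% level), which covers counting error only. Replicates differed by more than sampling noise (chi-square per degree of freedom 23.6 for WT and 6.75 for knockout).

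Lengths and coordinates came from GENCODE M21 on GRCm38, of which mm10 is another name, through the gene symbol, with a length for 96.4% of genes tested. Alternatives were edgeR 4.0.16 and DESeq2 1.42.0 on recovered reads, other scalings, pseudocounts and filters, a replicate block and leaving out each library. When this fit was tested on simulated counts, the share of false calls was above the threshold, so calls near it are less firm than the adjusted p states. Named genes were Irf8, all integrin subunits, from each further list the 3 rises and 3 falls of lowest adjusted p, up to 2 markers per cell type, and the 3 genes most like the members with the largest rise and fall (mean of at least 100). Exceptions are marked in the text, besides genes that overlap a member. The members and lists were chosen with earlier results of these data known.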

Additional observations from a re-analysis of the deposited data

How the results depend on the processing

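Counts below are higher and lower calls. Over all genes the main counts were 3662 and 2469. Median centring gave 2389 and 7210 (24.9% of calls higher in place of 59.7%), edgeR with upper-quartile factors 47.0% higher, and leaving out 1 library 1309 to 4137 and 630 to 2759, the fewest without knockout-labelled replicate 1 (1358 and 694) or 2 (1309 and 630). For the 10 subunits the counts were 2 and 6, 1 higher with median centring (Itgb7 at 0.01), and 2 and 5 to 6 when 1 library was left out. Of 140 alternative values of the 10, 130 kept direction and side of the threshold, 6 lost the call (Itgam 5 times, Itgb7 once), and Itga4 gained one with median centring (-0.30). The 3 that reversed were Itgb3 with median centring (-0.19) and Itga4 without WT-labelled replicate 2 (0.04) or knockout-labelled replicate 2 (0.02), in a range of -0.04 to 0.04 with 1 library left out.

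Among other subunits (6 and 2), the lower count was 4 with median centring, 1 with a minimum of 50 and without robust variance, 0 with no filter and by DESeq2, and 0 to 3 when 1 library was left out, with 2 to 6 higher. Itga3 (-0.01), Itgax (-0.17) and Itgb5 (-0.10) reversed with median centring, and Itga11 (-0.05) without knockout-labelled replicate 2, in a range of -0.05 to 1.11. Ligands (7 and 4) gave 4 to 9 and 2 to 4 when 1 library was left out. Activation and linkage genes (21 and 13) gave 12 and 25 with median centring and 10 to 22 and 6 to 16 with 1 library left out. TGF-beta pathway genes (2 and 5) gave 4 higher with a minimum of 50, 12 lower with median centring, and 2 to 5 and 0 to 6 with 1 library left out. Where 1 library was left out, the lone library of its group was assumed to vary like the other group. The causes of these shifts were not tested. The log2 differences of the partner ratios between groups kept their sign on leaving out 1 library. Summed exon length is no check of them, since a change of length scales a gene alike in every library.

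The replicate numbers of the titles are not known to pair libraries, and deviations of equally numbered libraries correlated at 0.0172 over genes. With the replicate block, the counts over all genes were 3415 and 2168, those of the 10 subunits 2 and 5 (Itgam lost, adjusted p = 0.0508, limma), and 0 other subunits were lower. For genes with few reads, such as Itgam, depth limits the precision.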
